A study of Danio rerio with 18 samples.

Results

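Ribosome biogenesis genes encode the proteins that transcribe, modify, fold and cut ribosomal RNA (rRNA) in the nucleolus and assemble it into ribosomal subunits. They were followed here in 18 RNA-seq libraries from dissected kidney and intestine of larval zebrafish. The genes were given as a list of 55 names and were matched to the gene tables by symbol, ignoring case and allowing a final a or b to be missing. Of the 55 names 54 matched 1 gene each among the 32520 genes of the tables. The name pes matched no symbol by that rule, and the gene that the tables call PES1 is given beside the others but not counted with them. Gene symbols are spelled as the table of gene names has them, so several zebrafish genes appear in capitals.

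All fish were of the AB strain, and every group had 3 libraries. The chd8-/- fish carried the mutation of chd8, which encodes a chromatin remodeller of the CHD family, on both copies of the gene. The labels name neither the allele nor the number of lines. Germ-free wild type (GF) embryos spent some hours in medium with antibiotics, were rinsed with polyvinylpyrrolidone and then sodium hypochlorite, and grew up in sterile medium. Conventionally raised wild type (CV) embryos came from the same eggs as the GF embryos and skipped those steps. Intestines were taken 5 days and kidneys 7 days after fertilization in each of the groups, so tissue and age cannot be told apart. The chd8-/- clutches were laid in circulating and the GF and CV clutches in autoclaved system water, so genotype cannot be told apart from rearing either. Tissue was pooled from 40 chd8-/-, 30 GF and 30 CV embryos for the intestine and from about 70 chd8-/-, 50 GF and 50 CV embryos for the kidney. The labels do not say whether those numbers are per library or whether the replicates came from separate clutches. The p-values therefore cover only the spread among the deposited libraries, and that spread may be technical.

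As background, ribosome production begins when RNA polymerase I copies the rRNA genes. The growing transcript is bound by the small-subunit processome, which includes the UTP-A and UTP-B complexes and the U3 small nucleolar ribonucleoprotein (snoRNP), while other snoRNPs guide chemical modification of bases and sugars. Separate sets of helicases, GTPases and nucleases then complete the small (40S) and large (60S) subunits. In zebrafish larvae, mutants of several genes of this kind are known for small digestive organs, the exocrine pancreas among them.

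Total counts ran from 27291597 to 31268453 in kidney libraries and from 26864797 to 36624972 in intestine libraries, and all 54 genes passed the filter on low counts in every comparison. The lowest count of any of them in a library was 74, for utp18. CHD8 stood at 30.2, 34.8 and 39.1 CPM in chd8-/- kidney, at 53.8, 33.4 and 54.04 CPM in GF kidney and at 45.9, 51.2 and 51.7 CPM in CV kidney (CPM are counts scaled to a common library total, adjusted over the 18 libraries by the trimmed mean of M-values, TMM). The library labelled GF kidney replicate 2 thus had a CHD8 level like that of the chd8-/- libraries and below the other GF and CV kidney libraries. Whether its label is right was not tested. In the intestine CHD8 stood at 31.7 to 41.3 CPM in chd8-/-, at 57.6 to 62.6 CPM in GF and at 51.4 to 55.6 CPM in CV libraries. It fell in chd8-/- intestine (log2 difference -0.60, SE 0.15, adjusted p = 0.0292 in edgeR), and its difference in chd8-/- kidney did not pass (-0.55, SE 0.18, adjusted p = 0.468). Enterocyte markers were lower in kidney than in intestine for 22 of 23 genes in CV fish, and 12 of 21 kidney tubule and podocyte markers were higher and 6 lower, although their summed level was lower in kidney (1639 to 1883 CPM in CV kidney and 3615 to 4102 CPM in CV intestine). Markers of other tissues were present, and kidney libraries held 67558 to 129140 CPM of muscle markers and 39456 to 86442 CPM of exocrine pancreas markers, none of the 17 genes being at 0 in a group. In all, 4 libraries stood apart. They are chd8-/- kidney replicate 1, in which the ribosome biogenesis genes were low, GF kidney replicate 2, CV kidney replicate 1, with 4496 CPM of skin keratinocyte markers against 15917 to 23934 CPM in the other kidney libraries, and GF intestine replicate 3, with 1038 CPM of brain and retina markers against 38.4 to 74.7 CPM in the other intestine libraries.

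The summed level of the ribosome biogenesis genes differed more between the tissues than between the groups of 1 tissue. It was 4442, 6905 and 6699 CPM in chd8-/- kidney, 4700.2, 6326 and 4778 CPM in GF kidney and 5579, 6098 and 5957 CPM in CV kidney. In intestine the sums were 3893, 3691 and 3818 CPM in chd8-/-, 3576, 3347 and 2820.2 CPM in GF and 3243, 2992 and 3376 CPM in CV libraries. Every kidney sum lay above every intestine sum, but abundant genes weigh most in a sum. Gene by gene, chd8-/- kidney replicate 1 was close to the intestine. Its median over the 54 genes of log2 CPM minus the mean of the 18 libraries was -0.078. In chd8-/- intestine replicate 1 that median was -0.080. The highest group mean was in a kidney group for 46 of the 54 genes (chd8-/- kidney for 29, GF kidney for 1 and CV kidney for 16), and the lowest was in GF intestine for 22 and in CV intestine for another 22. The ratio of highest to lowest group mean ran from 1.13 to 4.01, with a median of 1.84.

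**Figure D1:**
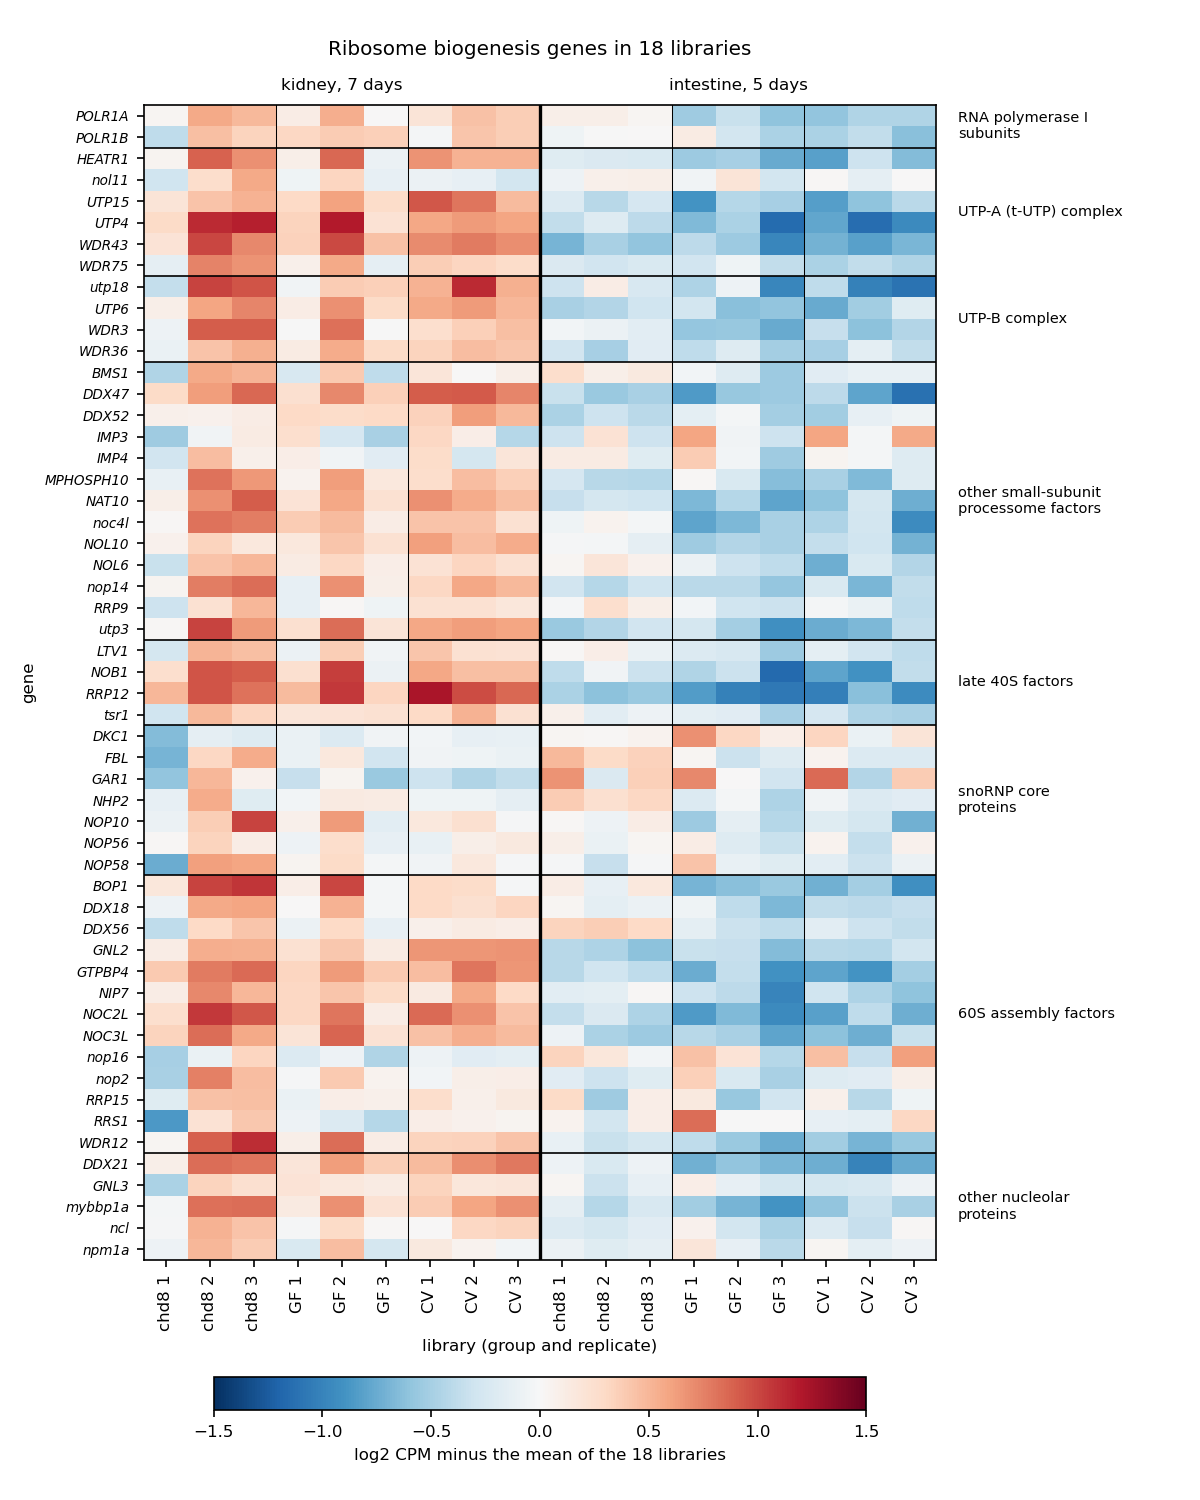
Each row is 1 of the 54 genes and each column 1 library, in colour the log2 CPM minus the gene's mean over the 18 libraries; rows are grouped by the role of the protein. Most rows are red in kidney and blue in intestine, the snoRNP core proteins are mostly pale, and chd8 kidney replicate 1 is paler or bluer than replicates 2 and 3.

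The first comparison asked how kidney differed from intestine within each group, where the 3 contrasts share no library. Kidney was the higher tissue for most of the genes in all 3 groups. With all libraries, 26 of 54 genes were higher and 0 lower in chd8-/- kidney than in chd8-/- intestine (edgeR quasi-likelihood test, adjusted p under 0.05 over all genes), where 17.8% of all genes tested were higher and 19.2% lower. In GF fish 29 were higher and 0 lower, against a background of 15.7% of all genes higher and 19.5% lower, and in CV fish 34 were higher and 0 lower, against 17.5% and 19.8%. The median log2 difference, kidney minus intestine, was 0.56 in chd8-/-, 0.60 in GF and 0.76 in CV fish, while the median over all genes tested was 0.03, -0.03 and -0.0048. In CV fish all 3 kidney libraries lay above all 3 intestine libraries for 40 of the 54 genes and below for 0, against 24.0% and 27% of all genes. A set of 23 genes passed in all 3 groups (42.6% of the 54, against 9.82% of all genes tested in the 3 contrasts), and 19 passed in none. These are bulk tissues, so fewer cells of a type and less RNA per cell cannot be told apart.

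Replicate 1 of chd8-/- kidney is set apart because these same genes are low in it, so the higher count without it follows in part from that choice and is a description. It was 42 of 54 higher and 0 lower in chd8-/- fish, against 21.9% of all genes higher and 24.0% lower, with a median of 0.73. With all libraries 35 genes passed in at least 1 group, so some that passed in none there did pass without replicate 1. Both other chd8-/- kidney libraries lay above all chd8-/- intestine libraries for 45 genes and below for 1, against 31.4% and 34.4% of all genes. The accounts by role below use the fits with all libraries. Leaving out chd8-/- kidney replicate 2 instead gave 14, and leaving out intestine replicate 1, 2 or 3 gave 12, 13 and 14. Fewer of all genes passed in these fits too, 6300 without kidney replicate 2 and 5393 to 5539 without an intestine replicate, against 7733 with all libraries. In GF fish 26 were higher and 0 lower without GF kidney replicate 2, against 15.3% and 20.7% of all genes. Without GF intestine replicate 3 there were 22 higher and 1 lower, with a median of 0.47, where 7345 of all genes passed, against 7528 with all libraries. The GF calls of NOB1, NOL6 and POLR1B were lost without either library, and those of DDX52, HEATR1, nop14 and tsr1 without GF intestine replicate 3. In CV fish 34 were higher and 0 lower without CV kidney replicate 1, with a median of 0.84, where 8680 of all genes passed, against 7870 with all libraries. The direction of the median did not change with any scaling, although scaling by library size alone moved the median over all genes by more than 0.1 in GF fish (to -0.18, with 0.44 for the 54 genes) and in CV fish (to -0.13, with 0.64).

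**Figure D2:**
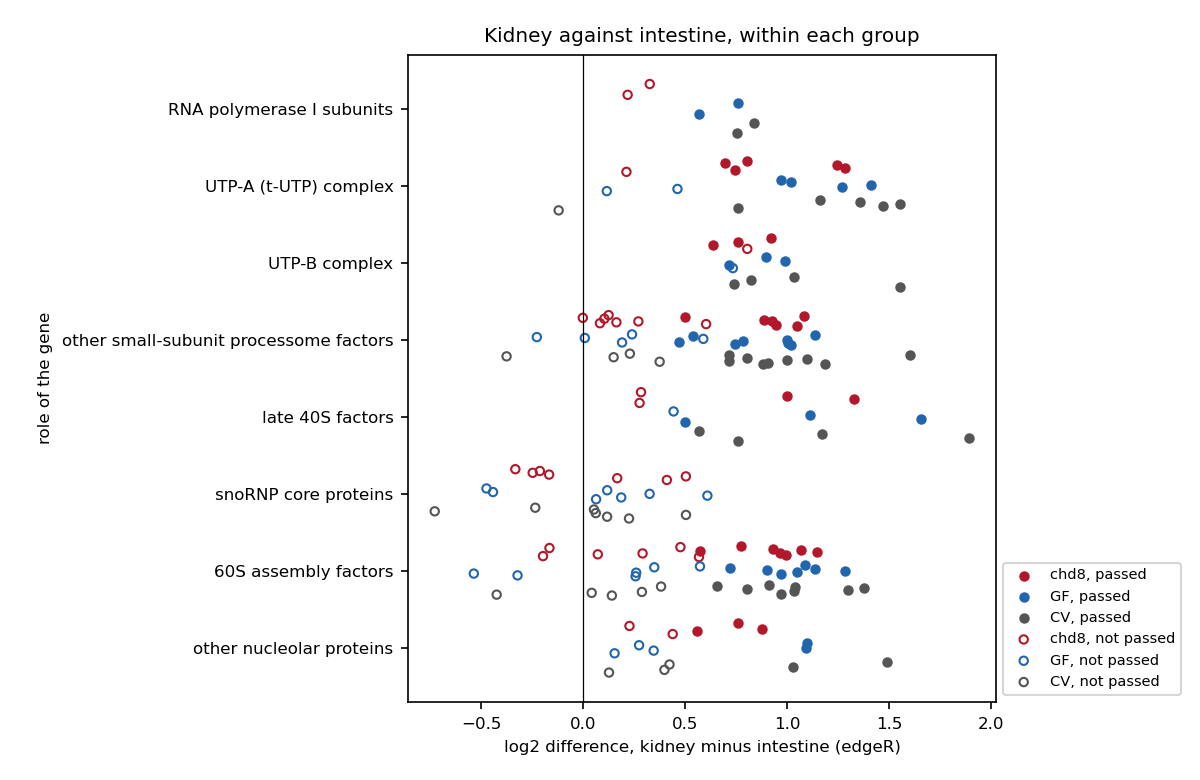
The horizontal axis is the log2 difference, kidney minus intestine, of each gene in the edgeR fit with all libraries; rows are the roles, colours the groups, filled points passed at an adjusted p under 0.05 and open points did not. The points of the UTP-A, UTP-B and late 40S rows lie to the right except those of nol11 in UTP-A, which lie near 0, and reach 1.89 for RRP12, while those of the snoRNP core proteins scatter around 0 and are all open.

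The largest tissue difference in each group was that of RRP12. This late 40S factor, needed for export of pre-ribosomes in yeast, stood at 203, 274 and 251 CPM in chd8-/- kidney and 103, 93.1 and 97.6 CPM in chd8-/- intestine. Its GF values were 199, 297 and 179 CPM in kidney and 79.7, 70.9 and 68.2 CPM in intestine, and its CV values 335, 282 and 259 CPM in kidney and 70.1, 92.5 and 74.4 CPM in intestine. Every kidney library was above every intestine library of any group, and the log2 difference was 1.33, SE 0.16, adjusted p = 0.000368 in chd8-/-, 1.66, SE 0.22, adjusted p = 0.000959 in GF and 1.89, SE 0.23, adjusted p = 0.000178 in CV fish. NOB1, the nuclease that makes the last cut of small-subunit rRNA, stood at 43.4, 70.3 and 68.6 CPM in chd8-/-, 43.1, 75.0 and 34.4 CPM in GF and 54.4, 49.9 and 50.1 CPM in CV kidney. Its intestine values were 28.0, 35.3 and 29.1 CPM in chd8-/-, 26.6, 29.2 and 16.3 CPM in GF and 21.0, 19.4 and 28.3 CPM in CV fish. Kidney and intestine did not overlap within any group, and the difference passed in each (1.00 in chd8-/-, 1.11 in GF and 1.17 in CV fish on the log2 scale). Of the 4 late 40S factors 2 passed in chd8-/-, 3 in GF and 4 in CV fish, the others being LTV1 and tsr1.

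The 2 subunits of RNA polymerase I on the list, POLR1A and POLR1B, form its catalytic core. POLR1A stood at 87.3, 127 and 119.9 CPM in chd8-/-, 93.1, 126 and 86.4 CPM in GF and 98.5, 116 and 111 CPM in CV kidney, and at 91.4, 90.97 and 87.7 CPM in chd8-/-, 59.4, 67.9 and 56.5 CPM in GF and 57.0, 62.9 and 63.0 CPM in CV intestine. Within GF and CV fish the tissues did not overlap (log2 difference 0.76, SE 0.18, adjusted p = 0.0136 in GF and 0.84, SE 0.18, adjusted p = 0.00517 in CV), whereas in chd8-/- fish kidney replicate 1 lay just below the intestine libraries (0.33, SE 0.17, adjusted p = 0.164). POLR1B stood at 18.9, 33.7 and 31.2 CPM in chd8-/-, 30.7, 32.1 and 31.7 CPM in GF and 24.2, 32.95 and 31.8 CPM in CV kidney, and at 23.6, 24.6 and 24.8 CPM in chd8-/-, 26.9, 20.4 and 17.75 CPM in GF and 17.75, 19.1 and 16.0 CPM in CV intestine. It passed in GF (0.57, adjusted p = 0.0396) and CV fish (0.76, 0.0133) and not in chd8-/- fish (0.22, 0.459). Whether the tissue difference itself differed between chd8-/- and CV fish is the contrast tested further down, in which neither subunit passed.

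Among the 6 UTP-A proteins, which bind the nascent transcript and in human cells also promote its synthesis, 5 were higher in chd8-/-, 4 in GF and 5 in CV kidney. UTP4 stood at 63.2, 112 and 116 CPM in chd8-/-, 64.9, 117 and 59.8 CPM in GF and 76.8, 80.1 and 77.8 CPM in CV kidney, and at 40.0, 45.3 and 39.2 CPM in chd8-/-, 32.7, 37.0 and 23.1 CPM in GF and 30.2, 23.3 and 26.7 CPM in CV intestine. Every kidney library was above every intestine library, with log2 differences of 1.25 in chd8-/-, 1.41 in GF and 1.56 in CV fish (adjusted p = 0.00361, 0.00912 and 0.000148). WDR43 had 172, 299.7 and 247 CPM in chd8-/- kidney and 92.6, 107 and 99.7 CPM in chd8-/- intestine, 190.1, 298 and 203 CPM in GF kidney and 114, 103 and 75.8 CPM in GF intestine, and 245, 258 and 243 CPM in CV kidney and 91.4, 85.2 and 92.95 CPM in CV intestine. It passed in all 3 groups (1.28, 1.27 and 1.47). HEATR1, the largest protein of the complex, stood at 76.8, 138 and 120.0 CPM in chd8-/-, 79.5, 135 and 70.4 CPM in GF and 119.6, 107 and 107 CPM in CV kidney, and at 66.1, 64.4 and 63.7 CPM in chd8-/-, 51.4, 52.9 and 44.2 CPM in GF and 42.4, 60.1 and 47.8 CPM in CV intestine. Its log2 difference was 0.80 in chd8-/-, 0.97 in GF and 1.16 in CV fish, and it passed in each. In contrast, nol11 did not pass in any of the 3 groups with all libraries (0.21, 0.12 and -0.12).

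The UTP-B proteins joined them, with 3 of 4 higher in chd8-/-, 3 in GF and 4 in CV kidney. The gene utp18 stood at 3.93, 10.2 and 9.68 CPM in chd8-/-, 4.86, 6.53 and 6.45 CPM in GF and 7.21, 10.9 and 7.25 CPM in CV kidney, and at 4.06, 5.45 and 4.24 CPM in chd8-/-, 3.64, 4.77 and 2.54 CPM in GF and 3.85, 2.49 and 2.34 CPM in CV intestine. It was the low-count gene of the list, and it passed in CV fish alone (1.56, SE 0.31, adjusted p = 0.00336), with 0.81 in chd8-/- (adjusted p = 0.11) and 0.73 in GF fish (0.0849). UTP6, WDR3 and WDR36 passed in all 3 groups, at 0.64 to 1.04 on the log2 scale. Of the 13 other processome factors 6 were higher in chd8-/-, 8 in GF and 9 in CV kidney, among them NAT10, which acetylates rRNA, and the helicases DDX47 and DDX52. DDX47 stood at 51.2, 64.8 and 76.2 CPM in chd8-/- kidney and 33.2, 28.6 and 30.0 CPM in chd8-/- intestine, at 49.6, 69.1 and 53.7 CPM in GF kidney and 23.2, 28.2 and 28.7 CPM in GF intestine, and at 78.9, 79.7 and 69.7 CPM in CV kidney and 31.9, 24.4 and 19.3 CPM in CV intestine. The tissues did not overlap in any group, and the log2 difference was 1.08 in chd8-/-, 1.14 in GF and 1.604 in CV fish. With all libraries IMP3 and IMP4, partners of MPHOSPH10 in the processome, did not pass in any group. Neither did the GTPase gene BMS1 or RRP9, a U3 protein.

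Of the 7 snoRNP core proteins 0 passed in any group, in either direction, in edgeR or DESeq2 with all libraries. In edgeR 15.7% to 17.8% of all genes were higher and 19.2% to 19.8% lower. Whether this group of 7 differs from the background was not tested, and the roles were not compared by a test. At an unadjusted p under 0.05 there were 0 of 7 in chd8-/-, 2 in GF and 2 in CV fish. Of all genes tested 9649 of 20902, 9613 of 21422 and 9844 of 21130 reached it in these groups. FBL, the methyltransferase of box C/D snoRNPs, stood at 44.8, 90.0 and 107 CPM in chd8-/-, 67.6, 80.9 and 59.4 CPM in GF and 70.3, 69.7 and 67.8 CPM in CV kidney, and at 102, 88.9 and 92.5 CPM in chd8-/-, 74.0, 58.0 and 63.3 CPM in GF and 75.1, 63.0 and 63.1 CPM in CV intestine. Its kidney and intestine values overlapped in all 3 groups. Its partners NOP56 and NOP58 had group means of 204 ± 23.9 and 85.6 ± 37.5 CPM in chd8-/- kidney, 187 ± 28.4 and 76.1 ± 8.91 CPM in GF kidney, and 188 ± 17.6 and 72.4 ± 5.96 CPM in CV kidney (SD, n = 3 each). In intestine the means of NOP56 and NOP58 were 184 ± 12.5 and 65.2 ± 8.36 CPM in chd8-/-, 168 ± 27.6 and 74.3 ± 18.2 CPM in GF, and 174 ± 27.5 and 62.1 ± 5.16 CPM in CV fish (SD, n = 3 each). DKC1, the pseudouridine synthase of box H/ACA snoRNPs, ran the other way, with 36.5, 52.2 and 50.0 CPM in chd8-/- kidney and 58.8, 58.3 and 59.8 CPM in chd8-/- intestine, 53.6, 49.8 and 55.2 CPM in GF kidney and 92.0, 71.5 and 61.5 CPM in GF intestine, and 55.8, 52.8 and 53.1 CPM in CV kidney and 72.0, 53.6 and 65.5 CPM in CV intestine. Kidney lay below intestine without overlap in chd8-/- and GF fish, but none of its differences passed (-0.33, -0.47 and -0.23, adjusted p = 0.144, 0.0665 and 0.346 in chd8-/-, GF and CV fish). Scaled by library size alone, DKC1 was lower in GF kidney (log2 difference -0.62, SE 0.19, adjusted p = 0.0393) and GAR1 in CV kidney (log2 difference -0.83, SE 0.28, adjusted p = 0.043). Leaving out 1 library also gave lower calls, for DKC1 in GF fish without intestine replicate 3 (log2 difference -0.61, SE 0.18, adjusted p = 0.0328) and, in CV fish without intestine replicate 2, for GAR1 (log2 difference -1.01, SE 0.21, adjusted p = 0.00881) and for nop16 of the large subunit (log2 difference -0.67, SE 0.20, adjusted p = 0.0363).

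Large-subunit factors split. Of the 13 on the list 7 were higher in chd8-/-, 7 in GF and 8 in CV kidney, and the same 7 genes passed in all 3 groups (BOP1, GNL2, GTPBP4, NIP7, NOC2L, NOC3L and WDR12). NOC2L escorts large-subunit precursors with NOC3L in yeast. NOC2L stood at 66.1, 116 and 106 CPM in chd8-/- kidney and 43.4, 47.7 and 40.3 CPM in chd8-/- intestine. Its GF values were 69.0, 96.6 and 59.8 CPM in kidney and 30.7, 35.2 and 28.7 CPM in intestine. Its CV values were 99.8, 89.5 and 74.6 CPM in kidney and 31.6, 42.7 and 33.4 CPM in intestine. The tissues did not overlap, with log2 differences of 1.15 in chd8-/-, 1.28 in GF and 1.301 in CV fish. GTPBP4, a GTPase of nucleolar precursors, differed by 1.07 in chd8-/-, 1.14 in GF and 1.38 in CV fish. The PeBoW complex, which matures large-subunit rRNA, holds BOP1, PES1 and WDR12. WDR12 stood at 18.9, 34.5 and 39.9 CPM in chd8-/-, 19.7, 33.1 and 20.1 CPM in GF and 23.4, 23.7 and 24.97 CPM in CV kidney, and at 17.2, 14.7 and 15.4 CPM in chd8-/-, 14.3, 12.7 and 11.04 CPM in GF and 12.9, 11.4 and 12.5 CPM in CV intestine. It passed in all 3 groups at 1.00, 0.97 and 0.97 on the log2 scale. PES1, outside the 54, stood at 49.7, 88.9 and 77.2 CPM in chd8-/-, 55.5, 85.7 and 50.4 CPM in GF and 67.4, 67.8 and 72.4 CPM in CV kidney, and at 59.4, 55.4 and 55.5 CPM in chd8-/-, 53.2, 53.9 and 41.7 CPM in GF and 54.3, 47.2 and 47.9 CPM in CV intestine. Its tissue difference was smaller, at 0.36 in chd8-/- (adjusted p = 0.215), 0.40 in GF (0.216) and 0.48 in CV fish (0.0491). With all libraries DDX18, a helicase, passed in CV fish alone. Those that passed in none of the groups in these fits were DDX56, nop16, nop2 (an rRNA methyltransferase), RRP15 and RRS1.

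The remaining nucleolar proteins also split. DDX21, a helicase that also binds polymerase I transcription units, stood at 658, 1104 and 1074 CPM in chd8-/-, 702, 951 and 797 CPM in GF and 859, 1002 and 1068 CPM in CV kidney, and at 584, 528 and 585 CPM in chd8-/-, 373, 409 and 384 CPM in GF and 373, 308 and 366 CPM in CV intestine. Every kidney library lay above every intestine library, and the difference passed in each group (0.76 in chd8-/-, 1.099 in GF and 1.49 in CV fish). The gene mybbp1a, whose protein binds the transcription factor Myb, stood at 105, 190.3 and 191 CPM in chd8-/-, 118, 173 and 125 CPM in GF and 139.8, 161 and 173 CPM in CV kidney, and at 97.5, 80.0 and 90.6 CPM in chd8-/-, 75.0, 66.1 and 57.5 CPM in GF and 71.0, 85.8 and 76.3 CPM in CV intestine. It too passed in each group (0.88, 1.09 and 1.03). Smaller differences were found for the other 3. Nucleolin (ncl) stood at 600.3, 877 and 817 CPM in chd8-/-, 603, 745 and 618 CPM in GF and 610.2, 757 and 769.8 CPM in CV kidney, and at 529, 509 and 542 CPM in chd8-/-, 636, 503 and 439.9 CPM in GF and 529, 480.4 and 616 CPM in CV intestine, and passed in chd8-/- fish (0.56, adjusted p = 0.0354) but not in GF (0.35, 0.19) or CV fish (0.40, 0.212). Nucleophosmin (npm1a) stood at 157, 233 and 216 CPM in chd8-/-, 142, 228 and 138 CPM in GF and 184, 172 and 161 CPM in CV kidney, and at 156, 147 and 150.5 CPM in chd8-/-, 188, 152 and 126 CPM in GF and 169, 149.7 and 158 CPM in CV intestine. Nucleostemin (GNL3) had 38.2, 67.2 and 62.6 CPM in chd8-/-, 61.0, 59.17 and 57.8 CPM in GF and 66.9, 59.7 and 60.3 CPM in CV kidney, and 53.99, 42.5 and 48.9 CPM in chd8-/-, 57.1, 48.8 and 44.3 CPM in GF and 44.4, 45.1 and 50.5 CPM in CV intestine. Neither npm1a nor GNL3 passed in any of the 3 groups with all libraries.

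Other genes of ribosome assembly were also higher in kidney. Of 62 further assembly factors, 25 were higher in chd8-/-, 32 in GF and 36 in CV kidney and 0 were lower, with medians of 0.55, 0.64 and 0.74. The gene rsl1d1, whose nucleolar protein has a domain of ribosomal proteins, had the largest difference in chd8-/- (1.66, SE 0.25, adjusted p = 0.00126), in GF fish (1.91, SE 0.20, adjusted p = 0.000396) and in CV fish (1.87, SE 0.21, adjusted p = 0.000123). Polymerase and exosome genes passed as higher about as often as all genes. Of 29 other polymerase I and III genes 4, 7 and 5 were higher and 2, 1 and 2 lower in chd8-/-, GF and CV kidney, where 17.8%, 15.7% and 17.5% of all genes were higher, and of 14 exosome genes 4, 3 and 2 were higher, led by EXOSC10, the nuclear exosome nuclease (log2 difference in CV fish 1.39, SE 0.20, adjusted p = 0.000528). Of 14 genes of the Myc family and its partners 0, 3 and 2 were higher and 0, 1 and 2 lower in chd8-/-, GF and CV kidney. The higher ones were mych in GF (0.92, SE 0.23, adjusted p = 0.0164) and CV fish (2.05, SE 0.38, adjusted p = 0.00233), a gene listed as MYC in GF (0.54) and CV fish (0.73) and MYCL in GF fish (0.52). The lower ones encode antagonists of Myc, MXD3 in GF (-0.98) and CV fish (-1.35) and MXD4 in CV fish (-1.00). Proliferation genes were lower in kidney in GF and CV fish, with 5, 43 and 30 of 52 lower and 0, 1 and 1 higher in chd8-/-, GF and CV kidney (medians -0.26, -1.56 and -1.25), where 19.2%, 19.5% and 19.8% of all genes were lower. Exocrine pancreas markers were higher in kidney for 13, 8 and 15 of 17 genes in chd8-/-, GF and CV fish, with medians of 1.38, 1.34 and 1.86. Blood-forming and erythroid markers were higher for 10, 6 and 7 of 16, and muscle markers for 11, 11 and 10 of 14. The part of these other cell types in the tissue difference was not tested.

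The second comparison set chd8-/- beside CV fish in the intestine, using the same 3 CV libraries as the GF comparison. The chd8-/- clutches were laid in other water than the CV clutches, so genotype cannot be told apart from rearing. Ribosome biogenesis genes had mostly positive differences, chd8-/- minus CV, and few passed singly. Of 54 genes 5 rose and 0 fell (edgeR, adjusted p under 0.05), against 3.98% and 5.19% of all genes tested, and 44 had a positive log2 difference. The median was 0.26 for the 54 genes and -0.01 for all genes. At an unadjusted p under 0.05 there were 19, 18 of them higher, where 5116 of all 20758 genes tested reached it in either direction. DESeq2 called 7 higher, against 5.0% of all genes. All 3 chd8-/- libraries lay above all 3 CV libraries for 25 genes and below for 0, against 15.6% and 14.8% of all genes. The median of the genes relative to their CV mean was 0.31, 0.22 and 0.25 in the 3 chd8-/- libraries, so all 3 were alike in this.

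The 5 genes that rose come from 4 of the roles above. BOP1 of the PeBoW complex stood at 41.0, 34.8 and 42.5 CPM in chd8-/- and 23.004, 26.6 and 20.1 CPM in CV intestine, with no overlap. Its log2 difference of 0.75, SE 0.16, adjusted p = 0.0148 equals a 1.68-fold rise. In GF intestine it was at 23.5, 24.5 and 25.8 CPM, and in kidney at 42.8, 76.7 and 80.2 CPM in chd8-/-, 40.8, 75.9 and 37.4 CPM in GF and 46.8, 46.0 and 37.6 CPM in CV fish.

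POLR1A stood at 91.4, 90.97 and 87.7 CPM in chd8-/- and 57.0, 62.9 and 63.0 CPM in CV intestine, with no overlap, and rose 1.46-fold (0.55, SE 0.13, adjusted p = 0.0277). POLR1B, also without overlap, did not pass (0.45, SE 0.14, adjusted p = 0.0802). UTP4 stood at 40.0, 45.3 and 39.2 CPM in chd8-/- and 30.2, 23.3 and 26.7 CPM in CV intestine. It rose 1.53-fold (0.62, SE 0.15, adjusted p = 0.0283), from the UTP-A complex in which the other 5 proteins did not pass, HEATR1 at 0.35 (adjusted p = 0.188). DDX21 stood at 584, 528 and 585 CPM in chd8-/- and 373, 308 and 366 CPM in CV intestine, again without overlap, and rose 1.605-fold (0.68, SE 0.17, adjusted p = 0.032).

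DDX56, a helicase of large-subunit assembly, stood at 33.9, 34.7 and 33.01 CPM in chd8-/-, 24.3, 21.5 and 20.6 CPM in GF and 24.1, 21.7 and 20.9 CPM in CV intestine. It rose 1.51-fold (0.59, SE 0.14, adjusted p = 0.0231), with no overlap with GF or CV intestine. In kidney it was at 20.6, 33.1 and 35.8 CPM in chd8-/-, 25.2, 33.02 and 24.6 CPM in GF and 28.4, 29.2 and 28.8 CPM in CV fish. Each chd8-/- intestine library thus lay above each CV kidney library, a contrast across tissue and age that was not tested.

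**Figure D3:**
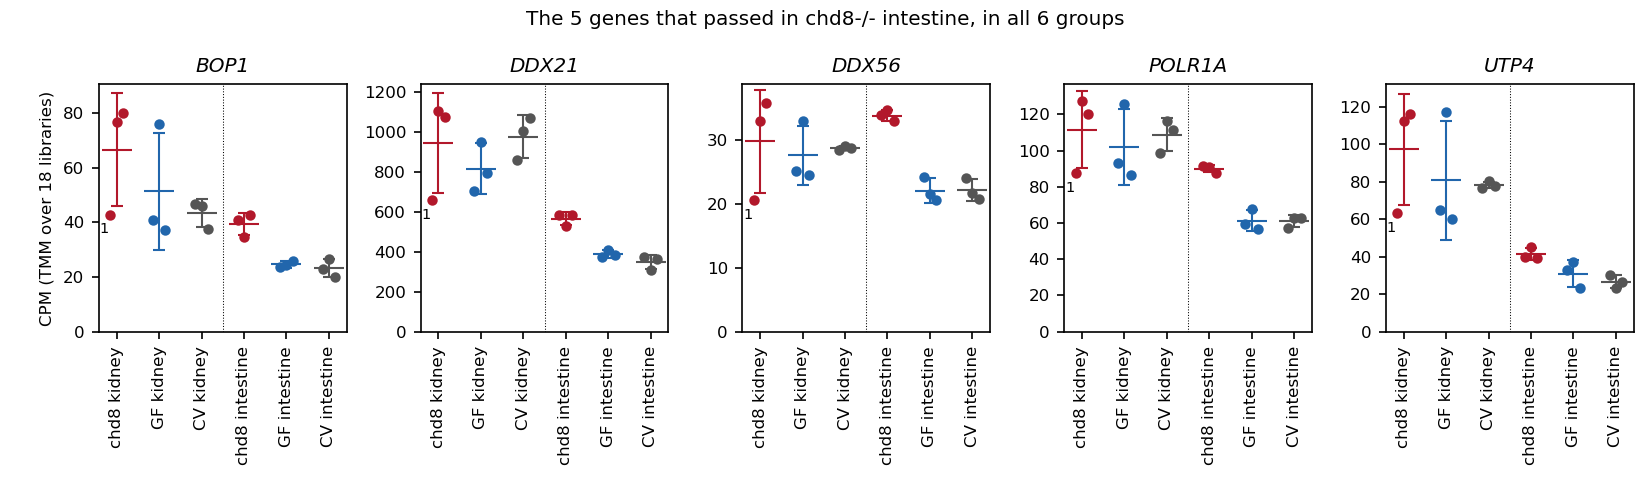
Points are single libraries, in CPM, of the 5 genes that rose in chd8-/- intestine, with the mean and SD of each group (n = 3); the 3 kidney groups are left of the dotted line and the 3 intestine groups right of it, and chd8-/- kidney replicate 1 carries the number 1. In intestine the chd8-/- points lie above all GF and CV points in every panel, as for BOP1 with 34.8 to 42.5 CPM in chd8-/- against 20.1 to 26.6 CPM in CV.

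The other genes named for their role did not pass. FBL (0.48, SE 0.14, adjusted p = 0.0624) and NHP2 (0.44, SE 0.14, adjusted p = 0.0783) came closest among the snoRNP proteins and did not overlap with CV libraries. NOP56 (0.06), NOP58 (0.05), DKC1 (-0.13), ncl (-0.06), npm1a (-0.09), GNL3 (0.04) and mybbp1a (0.19) had small log2 differences. WDR12 was at 0.35 (adjusted p = 0.19), NOB1 at 0.41 (0.177) and PES1, outside the 54, at 0.17 (0.467). By role, the medians ran from 0.04 for the other nucleolar proteins and 0.06 for the snoRNP core proteins, through 0.20 for UTP-B, 0.20 for the other processome factors, 0.23 for UTP-A and 0.27 for the 60S factors, to 0.31 for the late 40S factors and 0.50 for the polymerase I subunits. IMP3 had the most negative value (-0.53, SE 0.24, adjusted p = 0.194).

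Among the pathway genes outside the list, 6 of 62 further assembly factors rose and 1 fell, with a median of 0.25. DDX24, a helicase (0.89, SE 0.23, adjusted p = 0.0369), BYSL of the late small subunit (0.84, SE 0.19, adjusted p = 0.0199) and NMD3, the export adaptor of the large subunit (0.83, SE 0.15, adjusted p = 0.00693), rose, and RPF1, a large-subunit factor, fell (-0.66, SE 0.16, adjusted p = 0.0271). Of the 14 genes of the Myc family and its partners, which include activators and antagonists, mych (1.52, SE 0.32, adjusted p = 0.018) and a gene listed as MYC (0.80, SE 0.19, adjusted p = 0.025) rose and the other 12 did not pass. This MYC gene (mean 63.9 CPM in chd8-/- and 36.3 CPM in CV intestine) is not the one named above as higher in GF and CV kidney. That gene shares the symbol and had 36.0 CPM in chd8-/- and 26.9 CPM in CV intestine. POLR3C of polymerase III rose (1.12, SE 0.22, adjusted p = 0.0118), while BRF1 (-1.19, SE 0.23, adjusted p = 0.0095) and POLR3E (-0.48, SE 0.13, adjusted p = 0.0442), which also serve polymerase III, fell. EXOSC4 of the exosome rose (0.73, SE 0.20, adjusted p = 0.0461), and of 19 genes on a p53 target list 3 rose and 0 fell. Proliferation genes fell for 29 of 51 and rose for 0 (median -1.06), and their summed level was 612, 564 and 568 CPM in chd8-/- and 1121, 783 and 1236 CPM in CV intestine. Exocrine pancreas markers summed to 36157, 26674 and 24103 CPM in chd8-/- and 25884, 14149 and 18742 CPM in CV intestine, with 2 of 17 higher. The sums of 3 other marker lists did not overlap between the groups. Muscle markers summed to 16990 to 18076 CPM in chd8-/- and 10656 to 15142 CPM in CV intestine, kidney tubule and podocyte markers to 4697 to 5262 CPM in chd8-/- and 3615 to 4102 CPM in CV intestine, and blood-forming and erythroid markers to 217 to 244 CPM in chd8-/- and 319 to 336 CPM in CV intestine. The part of proliferation and of these cell types in the difference of the ribosome biogenesis genes was not tested.

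These calls were few, and their number changed in most fits that left out 1 library. Leaving out CV replicate 2, 1 or 3 gave 9, 5 and 2 calls. Without chd8-/- replicate 2 there was 1, and without chd8-/- replicate 1 or 3 there were 0. The number of all genes that passed moved as well, at 3069, 1923 and 1261 without CV replicate 2, 1 and 3. It was 783 without chd8-/- replicate 2 and 829 and 741 without chd8-/- replicate 1 and 3, against 1903 with all libraries. Scaling by library size alone left 1, BOP1, and moved the median over all genes to -0.14 and that of the 54 genes to 0.14. Over the 14 alternatives the log2 difference stayed positive for each of the 5 genes (BOP1 0.62 to 0.86, adjusted p = 0.00128 to 0.0782, DDX21 0.56 to 0.74, adjusted p = 0.000295 to 0.138, DDX56 0.47 to 0.66, adjusted p = 0.00566 to 0.0947, POLR1A 0.42 to 0.58, adjusted p = 0.00453 to 0.121 and UTP4 0.50 to 0.72, adjusted p = 0.00775 to 0.126).

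The kidney gave no call for chd8-/- against CV fish with all libraries, and 1 chd8-/- library lay apart from the other 2. In edgeR 0 of 54 genes passed, as did 0% of all genes, and DESeq2 called 0 (1.03% of all genes). At an unadjusted p under 0.05 there was 1, where 1895 of all 21060 genes tested reached it. The median log2 difference was 0.02, and 32 of 54 were positive. All 3 chd8-/- libraries lay above all 3 CV libraries for 0 genes and below for 4, against 9.35% and 6.4% of all genes. Leaving out 1 library at a time gave medians from -0.08 to 0.23. Replicate 1 of chd8-/- kidney held 0 of 54 genes above the CV mean, replicate 2 held 46 and replicate 3 held 45, with medians of -0.48, 0.28 and 0.23 relative to that mean. Replicate 1 was below all 3 CV libraries for 51 genes, where this held for 23.9% of all genes, and was the lowest of the 9 kidney libraries for 38, against 10.1% of all genes. The shift ran through every role, with medians in replicate 1 from -0.57 (other nucleolar proteins) to -0.21 (snoRNP core proteins).

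Replicates 2 and 3 lay on the other side of the CV mean. Since replicate 1 is set apart for its low values of these same genes, the counts without it are a description. They are no test of chd8-/- against CV fish. Without replicate 1, 0 of 54 passed (0.642% of all genes), 46 were positive and the median was 0.23 (-0.03 over all genes). At an unadjusted p under 0.05 there were 14, all higher, where 3172 of all 21650 genes tested reached it in either direction. Both libraries lay above all 3 CV libraries for 33 genes and below for 4, against 18.1% and 17.2% of all genes. The 4 that lay below were DDX52, DKC1, GNL2 and NOL10, which were below CV in replicate 1 as well. With CV kidney replicate 1 also left out, 11 of 54 rose and 0 fell, against 5.12% of all genes higher and 5.19% lower, and this fit compares 2 libraries with 2. BOP1 had the largest difference (0.90), followed by GAR1 of the box H/ACA snoRNPs (0.70), nol11 of UTP-A (0.61), WDR12 (0.60), UTP4 (0.52), NOP58 (0.51), nop2 (0.51), FBL (0.51), WDR3 of UTP-B (0.49), BMS1 (0.48) and NOB1 (0.46).

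**Figure D4:**
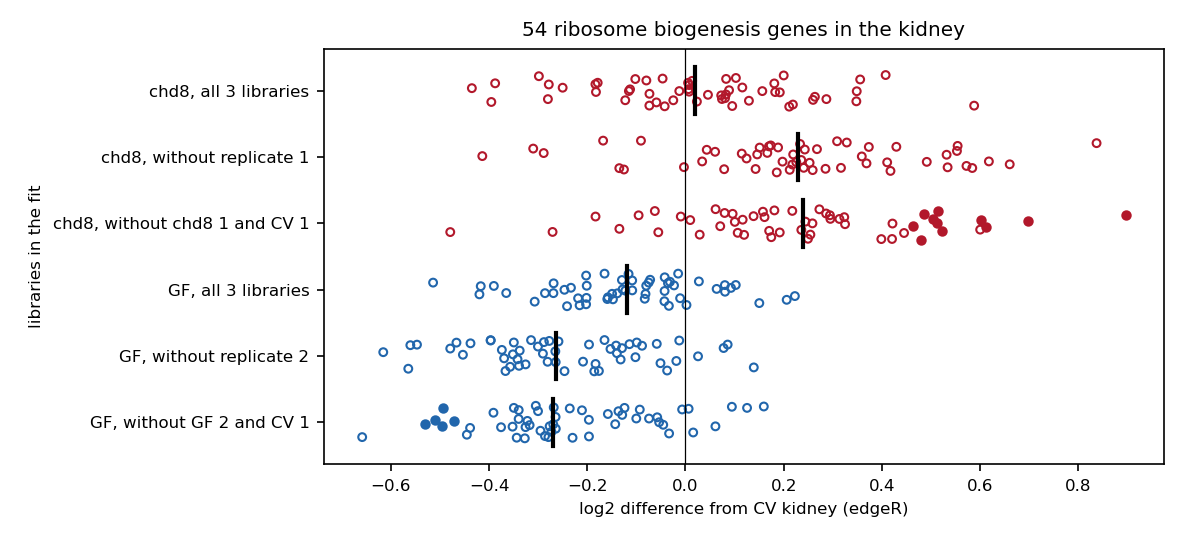
Each point is the log2 difference from CV kidney of 1 of the 54 genes in edgeR, for chd8-/- (red) and GF (blue) kidney with all libraries and with the named libraries left out; black bars are medians and filled points passed at an adjusted p under 0.05. The chd8-/- median is 0.23 without replicate 1 and 0.02 with all libraries, and the GF median is -0.26 without replicate 2 and -0.12 with all libraries.

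Single genes show the spread. BOP1 was at 42.8 CPM in chd8-/- kidney replicate 1, inside the CV range of 37.6 to 46.8 CPM, and at 76.7 and 80.2 CPM in replicates 2 and 3. GAR1 stood at 19.1, 40.7 and 30.1 CPM in chd8-/- and 23.2, 21.0 and 22.3 CPM in CV kidney. NOP58 stood at 42.3, 108 and 106 CPM in chd8-/- and 68.1, 79.2 and 69.8 CPM in CV kidney, so replicate 1 was the lowest of the 6 for both and replicates 2 and 3 were the highest. GNL2, a GTPase of large-subunit export, was lower in chd8-/- kidney in all 3 libraries, with 115, 156 and 154 CPM in chd8-/- and 168, 168 and 169 CPM in CV kidney, but its difference did not pass (-0.28, SE 0.20, adjusted p = 0.722).

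Other values moved with these libraries. Exocrine pancreas markers summed to 64586, 86442 and 83094 CPM in chd8-/- kidney and 72795, 81602 and 83572 CPM in CV kidney, with chd8-/- replicate 1 the lowest of the 6. Blood-forming and erythroid markers summed to 974, 371 and 431 CPM in chd8-/- and 585, 448 and 404 CPM in CV kidney, and muscle markers to 128590, 81672 and 67558 CPM in chd8-/- and 80174, 129140 and 104090 CPM in CV kidney, with chd8-/- replicate 1 the highest of its group in both. Enterocyte markers summed to 16593, 8768 and 11170 CPM in chd8-/- and 4698, 10995 and 9952 CPM in CV kidney, and proliferation genes to 573, 353 and 375 CPM in chd8-/- and 566, 393 and 403 CPM in CV kidney, where replicate 1 of chd8-/- was the highest of the 9 kidney libraries in both. The sum of the other 62 assembly factors was 3426, 5469 and 5294 CPM in chd8-/- and 3909, 4492 and 4279 CPM in CV kidney, in the order of the listed genes. The part of these cell types in the low values of replicate 1 was not tested.

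The chd8-/- difference was next set side by side in the tissues, which share no library. With all libraries 27 of 54 genes (50.0%) were higher than CV in both kidney and intestine, against 28.2% of all genes tested in both. The share with the same sign in both tissues was 59.3% of the 54 genes and 58.9% of all genes, about the same. Without kidney replicate 1, 40 (74.1%) were higher in both, against 29.3% of all genes, and 81.5% had the same sign, against 62.5%. That library was set apart for its low values of these same genes, so the higher count follows in part from that choice and is a description. The test of the difference between tissues, over 12 libraries, called 0 of 54 genes (0.153% of all genes), and DESeq2 called 0 (1.37% of all genes). At an unadjusted p under 0.05 there were 5, all with the lower difference in kidney. Of all 22203 genes tested 2196 reached that p, about the same share. The median of the contrast was -0.16 for the 54 genes, and 0.03 without kidney replicate 1, again a description. With library size alone it was -0.07, where the median over all genes was 0.12. POLR1A had -0.52, SE 0.24, adjusted p = 0.494 and POLR1B -0.55, SE 0.29, adjusted p = 0.568 in that contrast.

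The third comparison set GF beside CV fish. GF embryos also had the antibiotics and rinses that CV embryos skipped, so the absence of microbes cannot be told apart from those steps. In the intestine, differences of the ribosome biogenesis genes were small and none passed. In edgeR 0 of 54 genes passed and DESeq2 called 0, where edgeR called 0% of all genes and DESeq2 0.124%. At an unadjusted p under 0.05 there were 0, where 1249 of all 20954 genes tested reached it. The median log2 difference was 0.01 (0.01 over all genes) and 29 of 54 were positive, with single genes from -0.27 to 0.35. The 3 GF libraries did not lie together, with 40, 34 and 9 of 54 genes above the CV mean and medians of 0.14, 0.06 and -0.19 relative to it. GF replicate 3, the library with the high brain and retina markers, was the lowest of the 9 intestine libraries for 29 genes, against 15.3% of all genes, and the part of that tissue in the values was not tested. Without that library 0 of 54 passed, 42 were positive and the median was 0.06. POLR1A (0.02), BOP1 (0.09), FBL (-0.03), HEATR1 (-0.01) and ncl (-0.03) show the size of the log2 differences, none of which passed. DDX21 (0.17, SE 0.18, adjusted p = 0.892) and WDR75 (0.20, SE 0.15, adjusted p = 0.843) were the genes of the 54 without overlap, both higher in GF, where 4.82% of all genes lay above and 6.27% below.

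In the kidney most differences, GF minus CV, were negative and none passed. In edgeR 0 of 54 passed (0% of all genes) and DESeq2 called 0 (0.819% of all genes). At an unadjusted p under 0.05 there were 2, where 1856 of all 21120 genes tested reached it. The median log2 difference was -0.12 and 44 of 54 were negative, where the median over all genes was 0.01. All 3 GF libraries lay below all 3 CV libraries for 8 genes and above for 1, against 7.37% and 7.67% of all genes. Replicates 1 and 3 held 8 and 5 of 54 genes above the CV mean, with medians of -0.27 and -0.28. The library labelled GF kidney replicate 2, whose CHD8 level was like that of the chd8-/- libraries, held 38, with a median of 0.14.

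That library also had the highest median of these genes among the 3 GF kidney libraries. The lower values without it therefore follow in part from leaving it out. Counts without it are a description and no test of GF rearing. Without it 0 of 54 passed (0% of all genes) and the median was -0.26. At an unadjusted p under 0.05 there were 8, all lower, where 2594 of all 21692 genes tested reached it in either direction. Both remaining GF libraries lay below all 3 CV libraries for 37 genes and above for 1 (NHP2), against 17.3% and 16.8% of all genes. With CV kidney replicate 1 left out as well, 5 of 54 fell and 0 rose, where 1.95% of all genes fell and 2.48% rose, again with 2 libraries against 2. The 5 were nop14 of the processome (-0.53, SE 0.12, adjusted p = 0.0289), DDX47 (-0.51), HEATR1 (-0.50), RRP12 (-0.49) and GNL2 (-0.47). The gene nop14 stood at 55.8, 98.2 and 64.8 CPM in GF and 75.4, 91.3 and 85.5 CPM in CV kidney, so GF replicate 2 was the highest of the 6 while replicates 1 and 3 were the lowest. GNL2 stood at 124, 141 and 115 CPM in GF and 168, 168 and 169 CPM in CV kidney, with all 3 GF libraries below. With all libraries GNL2 differed by -0.42, SE 0.15, adjusted p = 0.548.

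Marker sums of several cell types moved with the same libraries. Exocrine pancreas markers summed to 50309, 84518 and 39456 CPM in GF and 72795, 81602 and 83572 CPM in CV kidney. GF replicate 2 thus lay just above the CV libraries and replicates 1 and 3 below them. Without replicate 2 and CV replicate 1, 13 of 17 of these markers fell (median -0.88), and 6 of 16 blood-forming and erythroid markers rose. Blood-forming and erythroid markers summed to 1023.5, 396 and 733 CPM in GF and 585, 448 and 404 CPM in CV kidney. Brain and retina markers summed to 231, 72.0 and 148 CPM in GF and 89.0, 72.4 and 67.4 CPM in CV kidney. In both lists replicates 1 and 3 of GF lay above the rest. Of the other 62 assembly factors 0 fell, with a median of -0.22, and of 52 proliferation genes 0 fell. In the fit without GF replicate 2 and CV replicate 1 the proliferation gene UHRF1 rose (log2 difference 0.76, SE 0.18, adjusted p = 0.0348). Genes that fell in that fit included EXOSC1 of the exosome (-0.54). From the p53 target list SESN1 (-0.92), a gene listed as GADD45B (-0.86) and TP53INP1 (-0.83) fell. The part of these cell types in the values of the ribosome biogenesis genes was not tested. The difference between tissues in the effect of GF rearing passed for 0 of 54 genes in edgeR and 0 in DESeq2, where edgeR called 0% and DESeq2 0.086% of all genes. That contrast had 0 of the 54 at an unadjusted p under 0.05, where 1291 of all 22368 genes tested reached it. Its median was -0.10 with 36 of 54 negative. Without GF kidney replicate 2 the median was -0.27 with 49 negative, where the median over all genes was -0.07, and without GF intestine replicate 3 it was -0.22 with 8 positive. In both fits 0 of 54 passed, and the fit without GF kidney replicate 2 is a description.

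**Figure D5:**
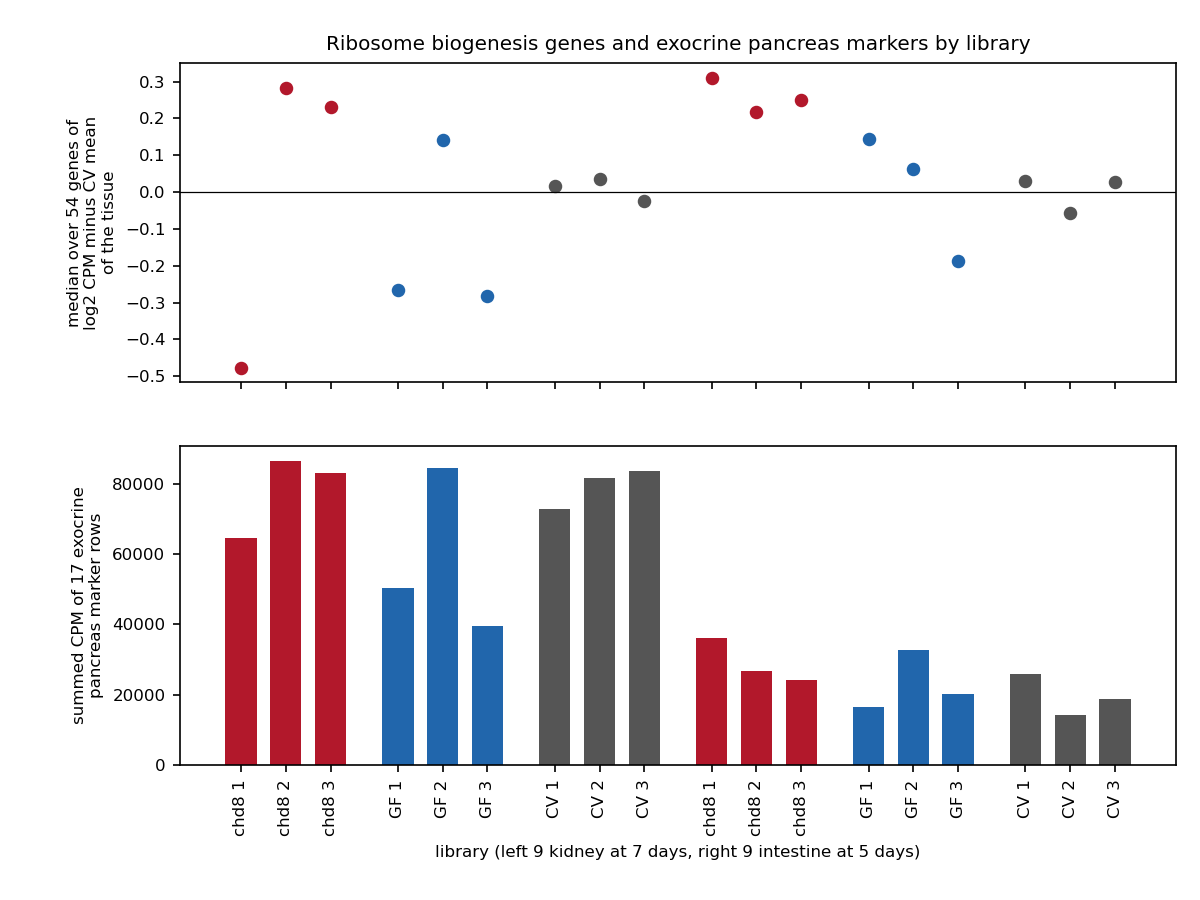
The upper panel shows, for each library, the median over the 54 genes of log2 CPM minus the CV mean of the same tissue, and the lower panel the summed CPM of 17 exocrine pancreas marker genes, kidney on the left and intestine on the right. In kidney the 3 lowest medians are those of chd8-/- replicate 1 (-0.48), GF replicate 1 (-0.27) and GF replicate 3 (-0.28). These 3 libraries also have the lowest pancreas sums (64586, 50309 and 39456 CPM). They have the highest kidney sums of 2 lists not drawn. These are blood-forming and erythroid markers (974, 1023.5 and 733 CPM) and brain and retina markers (96.2, 231 and 148 CPM). Other lists did not follow these libraries. Kidney sums of muscle and skin keratinocyte markers were highest in CV replicate 2 (129140 and 23934 CPM). Those of liver markers were highest in chd8-/- replicate 3 (8625 CPM). In GF intestine replicate 1 has the highest median (0.14) and the lowest pancreas sum (16623 CPM). The relations were not tested.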

How the data were processed

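The deposited files hold raw read counts per gene for 32520 genes, in 4 tables of the authors' that set chd8-/- or GF libraries beside CV libraries in kidney or intestine. Per the submitters' processing notes, Trim Galore 0.6.7, FastQC 0.11.9, STAR 2.7.9a, and featureCounts of Subread 2.0.1 were used with GRCz11. Annotation release, strand setting and the treatment of multi-mapping reads were not given in the sources used here, so reads of near-identical or overlapping genes cannot be told apart. Of the identifiers 29201 have a symbol. The CV intestine libraries carry different replicate numbers in the 2 intestine tables, and libraries are named here by those of the germ-free table. The replicate block of a chd8-/- comparison used the numbers of its own table.

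Comparisons were fitted on the counts in R 4.3.3 with edgeR 4.0.16 (TMM scaling, filterByExpr, robust quasi-likelihood F-test), each on the libraries of its groups alone, 6 for a comparison of groups and 12 for a difference between tissues. Adjusted p-values are Benjamini-Hochberg over all genes tested, and genes passed at an adjusted p under 0.05. The SE of a log2 difference is its size divided by the root of F. CPM were computed with TMM factors over all 18 libraries and are not divided by gene length, so levels were not compared between genes.

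Alternatives were DESeq2 1.42.0, its size factors, library size alone, no filter or 1 CPM in 3 libraries, a replicate block, all 3 groups of a tissue together, and fits without single libraries or a doubted pair. Genes named are those called against CV, a set of core factors, the 5 with the largest called tissue difference per group, and up to 3 called genes per direction of each pathway list. Others that are named (among them NHP2, IMP3, nol11, GNL2, GAR1 and nop14) were chosen after their values were seen. Members and lists were chosen with earlier results of these data known, and the roles were assigned after values were seen.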

Additional observations from a re-analysis of the deposited data

How the results depend on the processing

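Counts of genes passing for chd8-/- against CV fish in the intestine were the least steady. They were 5 with all libraries, 1 with scaling by library size alone, 1 with the replicate block and 0 to 9 when single libraries were left out. In kidney, leaving out CV replicate 1 together with chd8-/- replicate 1 gave 11 against 0, and with GF replicate 2 it gave 5 against 0. These 2 fits have 2 libraries a group, and the cause was not tested. Each leaves out the library of its group in which these genes stood apart, low in chd8-/- and high in GF. Both are therefore descriptions. Leaving out single libraries gave 12 to 42 genes for kidney against intestine in chd8-/- fish, 21 to 26 in GF and 30 to 35 in CV fish, higher in kidney but for 1 of 23 genes without GF intestine replicate 3 and 2 of 35 without CV intestine replicate 2. It gave 0 for the chd8-/- and GF kidney comparisons, the GF intestine comparison and both differences between tissues. Other settings kept each count within 1.5 times that with all libraries.

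Same-numbered libraries did not deviate together in every pair of any comparison (correlations from -0.19 to 0.28), so the numbers are not taken as pairs. With the replicate block the tissue counts were 22 in chd8-/-, 28 in GF and 34 in CV fish. With the CV numbers of the germ-free table, an alternative chosen after seeing the data, the block gave 5 genes in chd8-/- intestine. Of the single-gene results under these alternatives, 44 of the intestine kept their call for chd8-/- and 26 lost it. For kidney against intestine 244 kept and 68 lost it in chd8-/-, 304 and 44 in GF, and 391 and 17 in CV fish. None changed direction. With 3 libraries a group, a gene that did not pass is not shown to be unchanged.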
